A study of Mus musculus with 24 samples.

Results

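Esr1 encodes estrogen receptor alpha, and it was followed here together with Esr2, Gper1, Pgr and Greb1 in RNA-seq libraries of mouse pancreatic islets. These 5 genes were found by NCBI Gene number in a table of 28059 genes, and Esr1 was chosen because of its values in these libraries, so its levels are given as a description without a test. The mice were 3-4 months old on a mixed background, and their islets were cultured and picked by hand. The sample numbers divide 22 libraries into 2 sets. In set 1, 4 libraries carried floxed Etv1 (Etv1fl/fl), a germline knockout of Etv4 (Etv4ko/ko) and floxed Etv5 (Etv5fl/fl) beside Cop1fl/fl and Pdx1.CreERT2 (below the Etv1/4/5 libraries), 3 carried Cop1fl/fl with Pdx1.CreERT2 (the Cop1 deletion libraries) and 3 were controls with Cop1fl/fl. In set 2, 4 libraries carried Etv5fl/fl with 1 knockout allele of Etv4 (Etv4ko/+), again beside Cop1fl/fl and Pdx1.CreERT2 (the Etv4/5 libraries), 4 were Cop1 deletion libraries and 4 were controls. All groups thus share the floxed Cop1 alleles, and the label of every group but the controls names the Cre driver. Tamoxifen dosing is not stated in the labels, and the design text does not say whether a library holds islets of 1 mouse or of several, so p-values measure the spread between libraries, which may be technical.

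CreERT2 is a Cre recombinase fused to a mutated ligand-binding domain of the human estrogen receptor alpha, which holds Cre outside the nucleus until a tamoxifen metabolite binds. Estrogen receptor alpha itself is a nuclear receptor that leaves HSP90 chaperones when estradiol binds, and then binds DNA and recruits co-activators at genes such as Pgr and Greb1. In islets, estradiol acts through estrogen receptors alpha and beta and through the membrane receptor GPER1, and has been studied for its protection of β cells. Cop1 encodes an E3 ubiquitin ligase, and Etv1, Etv4 and Etv5 encode ETS factors that it marks for degradation. Pdx1 is a β-cell transcription factor whose promoter drives the transgene.

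A value per gene does not separate the receptor from the fusion. The sequence of the fusion was not available here, so mouse Esr1 was set beside mouse Esr2. Which domains the fusion holds is general knowledge and not read from these sequences. The mouse Esr1 coding sequence, the longest open reading frame of its GENCODE vM21 transcript (GRCm38), has 1800 bases against 1704 in Esr2, and the genes agree at 65.7% of 1600 aligned bases. The stretch of 120 bases most similar to Esr2 in the 5′ and in the 3′ part of the coding sequence is shown, 5′ to 3′ on the coding strand, with capitals at the bases that differ from Esr2. The first covers coding bases 634 to 753, encodes part of the zinc-finger DNA-binding domain, which CreERT2 lacks, and is 85% identical to Esr2. The second covers coding bases 1537 to 1656, encodes part of the ligand-binding domain, whose human counterpart is present in CreERT2, and is 78.3% identical to Esr2.
Esr1 DNA-binding domain: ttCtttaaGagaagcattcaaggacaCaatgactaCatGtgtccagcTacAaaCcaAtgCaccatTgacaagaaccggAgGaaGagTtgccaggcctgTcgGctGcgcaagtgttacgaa
Esr1 ligand-binding domain: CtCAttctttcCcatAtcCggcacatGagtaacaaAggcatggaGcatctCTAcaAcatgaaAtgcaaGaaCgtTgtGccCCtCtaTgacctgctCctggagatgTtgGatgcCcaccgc
The table does not say where in the gene a read fell, so reads of endogenous Esr1 and of CreERT2 cannot be told apart. Coding sequence makes up 41.4% of the 4344 bases of this Esr1 transcript. The differences marked in capitals are spread through both stretches.

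Values are RPKM, reads of a gene scaled by its length and by the mapped reads of the library, and low values are whole multiples of what 1 read is worth, so that reads behind each member could be recovered. Set 1 libraries had a relative depth of 0.331 to 0.526 of the deepest library, and set 2 libraries 0.758 to 1. Ductal markers summed to 151 to 176 RPKM in Etv1/4/5, 229 to 290 RPKM in Cop1 deletion and 141 to 185 RPKM in control libraries of set 1. In set 2 they summed to 948 to 2560 RPKM in Etv4/5, 2509 to 4044 RPKM in Cop1 deletion and 1054 to 1537 RPKM in control libraries. Every marker of the 5 in this list was above 0 in each group. Acinar markers summed to 1693 to 9524 RPKM in Etv1/4/5, 2941 to 9415 RPKM in Cop1 deletion and 2166 to 5827 RPKM in control libraries of set 1. The set 2 sums were 716 to 2935 RPKM in Etv4/5, 2792 to 16106 RPKM in Cop1 deletion and 584 to 8216 RPKM in control libraries. β-cell markers, dominated by insulin genes, summed to 165078 to 297013 RPKM over all libraries, so that the label of islets held. Fewer cells of a type and less RNA per cell cannot be told apart in bulk islets. Cop1, the targeted gene, was 0.719 to 1.04 RPKM in Etv1/4/5, 0.984 to 1.13 RPKM in Cop1 deletion and 1.22 to 1.55 RPKM in control libraries of set 1, and the library labelled set 1 control replicate 2 had the lowest control value.

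Esr1 was high wherever the label named the Cre driver. In set 1, Esr1 was 81.0, 58.7, 72.5 and 54.8 RPKM in Etv1/4/5 libraries and 106, 105 and 111 RPKM in Cop1 deletion libraries. The controls of set 1 had 0.169 RPKM in replicate 1, 99.1 RPKM in the library labelled replicate 2 and 0.191 RPKM in replicate 3. In set 2, Esr1 was 71.9, 93.9, 98.3 and 96.2 RPKM in Etv4/5 libraries and 48.4, 68.0, 44.0 and 79.8 RPKM in Cop1 deletion libraries, against 0.200, 0.05, 0.119 and 0.164 RPKM in controls. The lowest of the 15 libraries labelled with Cre thus lay 220-fold above the highest of the other 6 controls, and no value lay between them. The library labelled set 1 control replicate 2 fell inside the range of the Cre libraries, and 3 of the 15 were above it. In reads, Esr1 had 4883 to 19815 in Cre libraries and 12391 in that control, against 9 to 43 in the other controls. It ranked between place 347 and place 1465 of all genes in the Cre libraries.

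**Figure D1:**
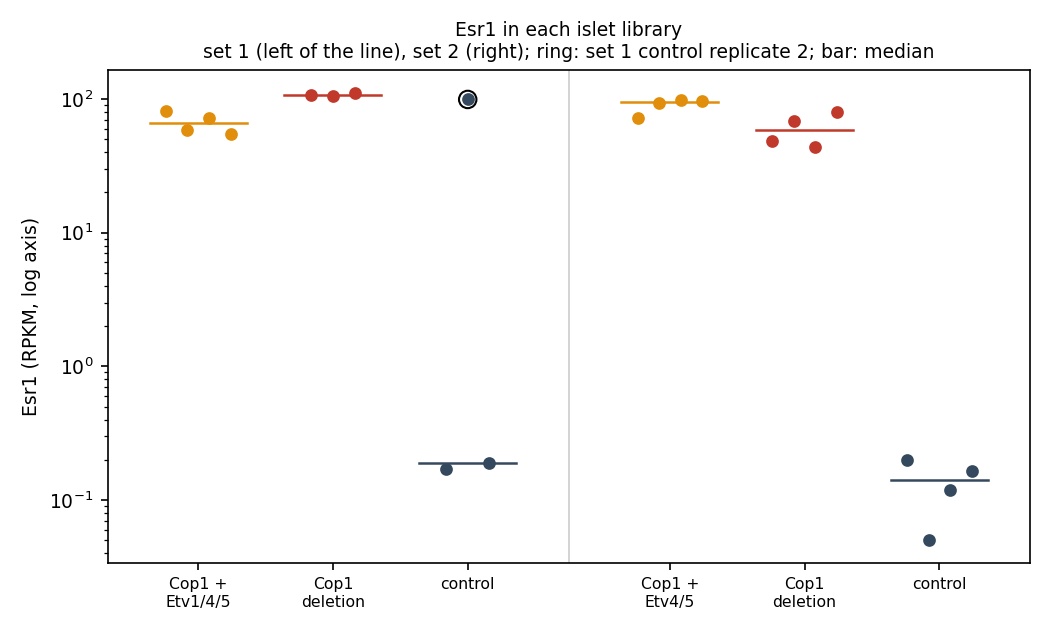
Esr1 in RPKM (log axis) in each of 22 libraries, by group, with set 1 left and set 2 right of the line; bars are group medians and the ring marks the library labelled set 1 control replicate 2. The 15 Cre libraries sit between 44.0 and 111 RPKM, the ringed control at 99.1 RPKM and the other 6 controls at 0.200 RPKM or below.

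The mean level of Esr1 with the added Etv deletions lay below that of Cop1 deletion alone in set 1 and above it in set 2. It averaged 66.7 ± 12.2 RPKM in Etv1/4/5 libraries (SD, n = 4) and 108 ± 3.24 RPKM in Cop1 deletion libraries of set 1 (SD, n = 3), and the groups did not overlap, as was so for 30.7% of all genes tested. It averaged 90.1 ± 12.2 RPKM in Etv4/5 libraries and 60.1 ± 16.8 RPKM in Cop1 deletion libraries of set 2 (SD, n = 4 each), and the groups overlapped, since Etv4/5 replicate 1 lay below Cop1 deletion replicate 4. Ordered by mean, the groups ran from set 1 Cop1 deletion through Etv4/5 and Etv1/4/5 to set 2 Cop1 deletion. The ranges of Etv4/5 and Etv1/4/5 libraries overlapped, as did those of Etv1/4/5 and set 2 Cop1 deletion libraries. The set 1 control group averaged 33.1 ± 57.1 RPKM (SD, n = 3), a mean that describes none of its libraries, and 0.18 RPKM without the library labelled replicate 2. The set 2 controls averaged 0.133 ± 0.0648 RPKM (SD, n = 4).

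Esr1 was set beside Pdx1, whose promoter drives the transgene. The ratio of Esr1 to Pdx1 RPKM was 0.722 to 1.24 in Etv1/4/5 and 1.08 to 1.37 in Cop1 deletion libraries of set 1. It was 0.967 to 1.15 in Etv4/5 and 0.801 to 1.35 in Cop1 deletion libraries of set 2. The library labelled set 1 control replicate 2 had a ratio of 1.23, inside those ranges, and the other 6 controls had 0.00058 to 0.00346. Over the 15 Cre libraries, log2 Esr1 and log2 Pdx1 had a Pearson r of 0.72 and a Spearman rho of 0.79. Within sets the values were 0.53 and 0.64 over 7 libraries of set 1, and 0.81 and 0.93 over 8 libraries of set 2. These libraries share scaling and β-cell content, so the correlation is a description. It also pools groups with different means, and with group means subtracted the Pearson r over the 15 Cre libraries was 0.26. Over all 22 libraries, Pdx1 had an r of -0.06 with Esr1, since controls have Pdx1 as well.

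**Figure D2:**
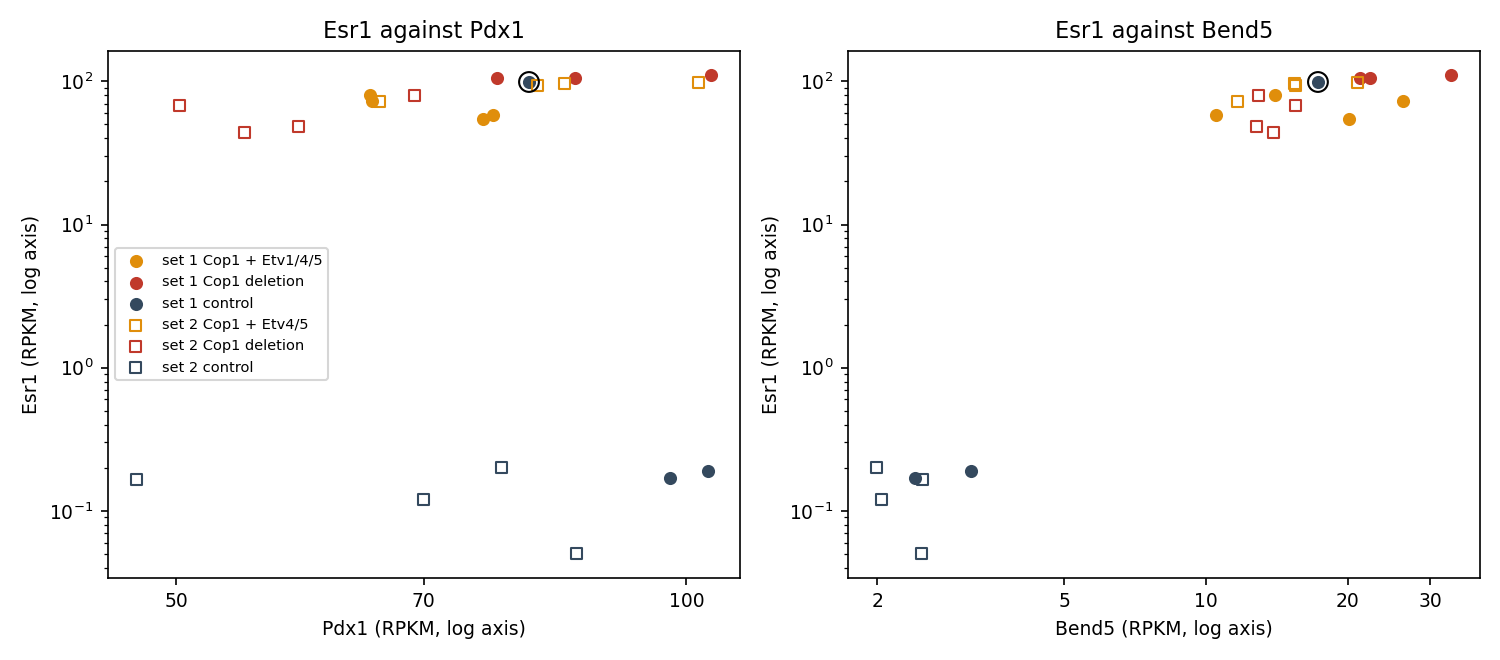
Esr1 against Pdx1 (left) and against Bend5 (right), in RPKM on log axes, with 1 point per library, filled for set 1 and open for set 2; the ring marks the library labelled set 1 control replicate 2. Pdx1 spans 50.2 to 103 RPKM in Cre libraries and 47.4 to 103 RPKM in the controls outside the ring, while Bend5 lies at 10.5 to 33.2 RPKM in Cre libraries, 17.3 RPKM in the ringed control and 1.99 to 3.17 RPKM in the other controls.

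The genes whose log2 level followed Esr1 most closely over the 22 libraries were Bend5 (r = 0.96), Elk3 (r = 0.89), Aqp3 (r = 0.85), Ngb (r = 0.85) and Trim45 (r = 0.85). The libraries fall into 2 clusters of Esr1, so each r mostly reflects the gap between them. Bend5, which encodes a BEN-domain protein, was 10.5 to 26.3 RPKM in Etv1/4/5, 21.3 to 33.2 RPKM in Cop1 deletion, 11.7 to 21.0 RPKM in Etv4/5 and 12.8 to 15.5 RPKM in set 2 Cop1 deletion libraries. It was 17.3 RPKM in the library labelled set 1 control replicate 2 and 1.99 to 3.17 RPKM in the other controls. Elk3, an ETS-family transcription factor, was 14.6 to 19.8 RPKM in Cre libraries, 16.2 RPKM in that library and 11.1 to 12.4 RPKM in the other controls. Both genes stood with the Cre libraries in the control whose Esr1 was high. The ranking by r included that library and so favored such genes, and their levels there are a description. Bend5 lies on chromosome 4 and Elk3 on chromosome 10, as Esr1 does.

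Aqp3, Ngb and Trim45 followed the label of that library instead. Aqp3, a channel for water and glycerol, was 12.6 to 41.5 RPKM in Cre libraries, 0.118 RPKM in the library labelled set 1 control replicate 2 and 0 to 0.423 RPKM in the other controls. Ngb, encoding neuroglobin, was 2.82 to 8.67 RPKM in Cre libraries, 1.65 RPKM in that library and 0.623 to 2.45 RPKM in the other controls. Trim45, a RING-finger protein, was 1.52 to 2.22 RPKM in Cre libraries, 0.679 RPKM in that library and 0.616 to 0.922 RPKM in the other controls. After group means were subtracted, the genes closest to Esr1 over the 15 Cre libraries were Zfp119b (r = 0.89), Fmo5 (r = 0.88), Ica1 (r = 0.84), Hdac2 (r = 0.84) and Hap1 (r = 0.83). None of these is among the closest genes over all libraries, and Pdx1 had an r of 0.26 there.

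The library labelled set 1 control replicate 2 was placed on genes chosen without set 1. In set 2 alone, 200 genes were called at 2-fold or more after Cop1 deletion, 112 higher and 88 lower. Their mean signed log2 level, relative to the median of each gene in set 1, was 0.04, -0.07, 0.07 and 0.02 in Etv1/4/5 libraries and 0.42, 0.39 and 0.35 in Cop1 deletion libraries. It was -0.37 in control replicate 1, -0.27 in the library labelled replicate 2 and -0.41 in replicate 3. On this mean, that library lay nearest to the other controls, and below every Etv1/4/5 and Cop1 deletion library. Over the 112 genes higher in set 2, its mean log2 level was -0.39, beside -0.43 and -0.47 in the other controls. Esr1 is itself among these 112 genes and was not left out. Its high level in that library raises this mean and the signed mean there relative to the other controls. Over the 88 lower genes it was 0.12, nearer to Etv1/4/5 libraries (-0.04 to 0.09) than to the other controls (0.29 and 0.34).

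**Figure D3:**
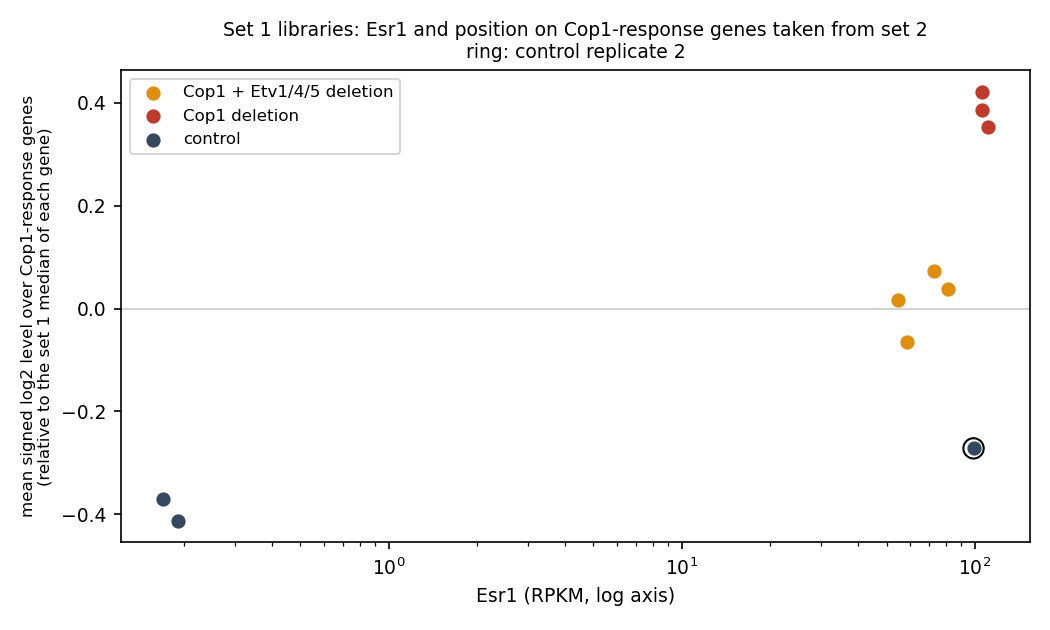
Mean signed log2 level of 200 genes called after Cop1 deletion in set 2, relative to the set 1 median of each gene, against Esr1 RPKM (log axis) in the 10 libraries of set 1; the ring marks the library labelled control replicate 2. The ringed library has 99.1 RPKM of Esr1, between the Etv1/4/5 libraries (54.8 to 81.0 RPKM) and the Cop1 deletion libraries (105 to 111 RPKM), and a position of -0.27, near the other controls at -0.37 and -0.41. Esr1 is itself among the 200 genes.

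Single genes placed it between the groups or with the controls. Mafa, a β-cell transcription factor, was 113 to 132 RPKM in Etv1/4/5 libraries, 41.3 to 61.3 RPKM in Cop1 deletion libraries, 145 RPKM in the library labelled set 1 control replicate 2 and 191 and 318 RPKM in the other set 1 controls. Slc2a2, the glucose transporter GLUT2, was 148 to 206 RPKM in Etv1/4/5 libraries, 45.0 to 68.9 RPKM in Cop1 deletion libraries, 189 RPKM in that library and 271 and 247 RPKM in the other set 1 controls. Both genes lay below the other controls and above every Cop1 deletion library there, and Slc2a2 fell inside the Etv1/4/5 range. Tm4sf20, a membrane protein, had 73 to 137 reads in Etv1/4/5 and 123 to 229 reads in Cop1 deletion libraries of set 1, 2 reads in that library and 2 and 4 reads in the other controls. Of 14342 genes tested, 40 were at least 2-fold above both other controls in that library and 48 at least 2-fold below, against 19 and 24 for replicate 1 and 24 and 72 for replicate 3. Among the 40, chosen after their values were seen, were Cck, encoding cholecystokinin, at 19.9 RPKM against 0.356 and 0.561 RPKM, and Aldh1a3, a retinaldehyde dehydrogenase, at 12.7 RPKM against 2.04 and 0.776 RPKM.

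The remaining members were at the floor of the table. Esr2, Gper1, Pgr and Greb1 never reached 1 RPKM, so none of the 4 passed the filter for the test across genes. Esr2, which encodes estrogen receptor beta, had 20 reads in all 22 libraries together. In set 1, Esr2 was 0, 0.0411, 0.0140 and 0.0432 RPKM in Etv1/4/5 libraries, 0.0128, 0 and 0 RPKM in Cop1 deletion libraries and 0.0145, 0.0205 and 0 RPKM in controls. The set 2 values of Esr2 were 0, 0.0133, 0.00637 and 0.00644 RPKM in Etv4/5 libraries, 0.00598, 0, 0 and 0 RPKM in Cop1 deletion libraries and 0, 0.00713, 0 and 0.0162 RPKM in controls. No library had more than 3 reads, and all groups overlapped. In the 10 libraries at 0, a count of 0 allows up to 3 reads, or 0.0174 to 0.0490 RPKM, for counting error only.

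Gper1, the membrane estrogen receptor, had 4 to 45 reads a library. In set 1, Gper1 was 0.0978, 0.0735, 0.132 and 0.0772 RPKM in Etv1/4/5 libraries, 0.291, 0.162 and 0.248 RPKM in Cop1 deletion libraries and 0.117, 0.193 and 0.329 RPKM in controls. All Etv1/4/5 libraries lay below all Cop1 deletion libraries and overlapped the controls. The set 2 values of Gper1 were 0.247, 0.178, 0.214 and 0.302 RPKM in Etv4/5 libraries, 0.240, 0.224, 0.280 and 0.350 RPKM in Cop1 deletion libraries and 0.168, 0.0860, 0.238 and 0.253 RPKM in controls. The groups of set 2 overlapped.

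Pgr, the progesterone receptor and a classic target of estrogen receptor alpha, had 4 to 22 reads a library. In set 1, Pgr was 0.0285, 0.0401, 0.0343 and 0.0422 RPKM in Etv1/4/5 libraries and 0.0498, 0.0788 and 0.0694 RPKM in Cop1 deletion libraries. The set 1 controls had 0.0283, 0.1 and 0.0638 RPKM, and the highest of all 22 values was in the library labelled replicate 2. In set 2, Pgr was 0.0261, 0.0617, 0.0218 and 0.0408 RPKM in Etv4/5 libraries, 0.0467, 0.0211, 0.0619 and 0.0482 RPKM in Cop1 deletion libraries and 0.0351, 0.0209, 0.0628 and 0.0580 RPKM in controls. The Cop1 deletion libraries overlapped the controls in both sets.

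Greb1, an estrogen-induced co-activator of the receptor in human breast cancer cells, had 4 to 68 reads a library. In set 1, Greb1 was 0.0420, 0.0451, 0.0751 and 0.0355 RPKM in Etv1/4/5 libraries, 0.0472, 0.0608 and 0.0351 RPKM in Cop1 deletion libraries and 0.0239, 0.0422 and 0.0336 RPKM in controls, and the groups overlapped. In set 2, Greb1 was 0.0903, 0.115, 0.107 and 0.180 RPKM in Etv4/5 libraries, 0.0172, 0.0611, 0.0886 and 0.0668 RPKM in Cop1 deletion libraries and 0.0492, 0.0411, 0.0831 and 0.0866 RPKM in controls. All Etv4/5 libraries lay above all other libraries of set 2, by a narrow margin for the lowest.

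**Figure D4:**
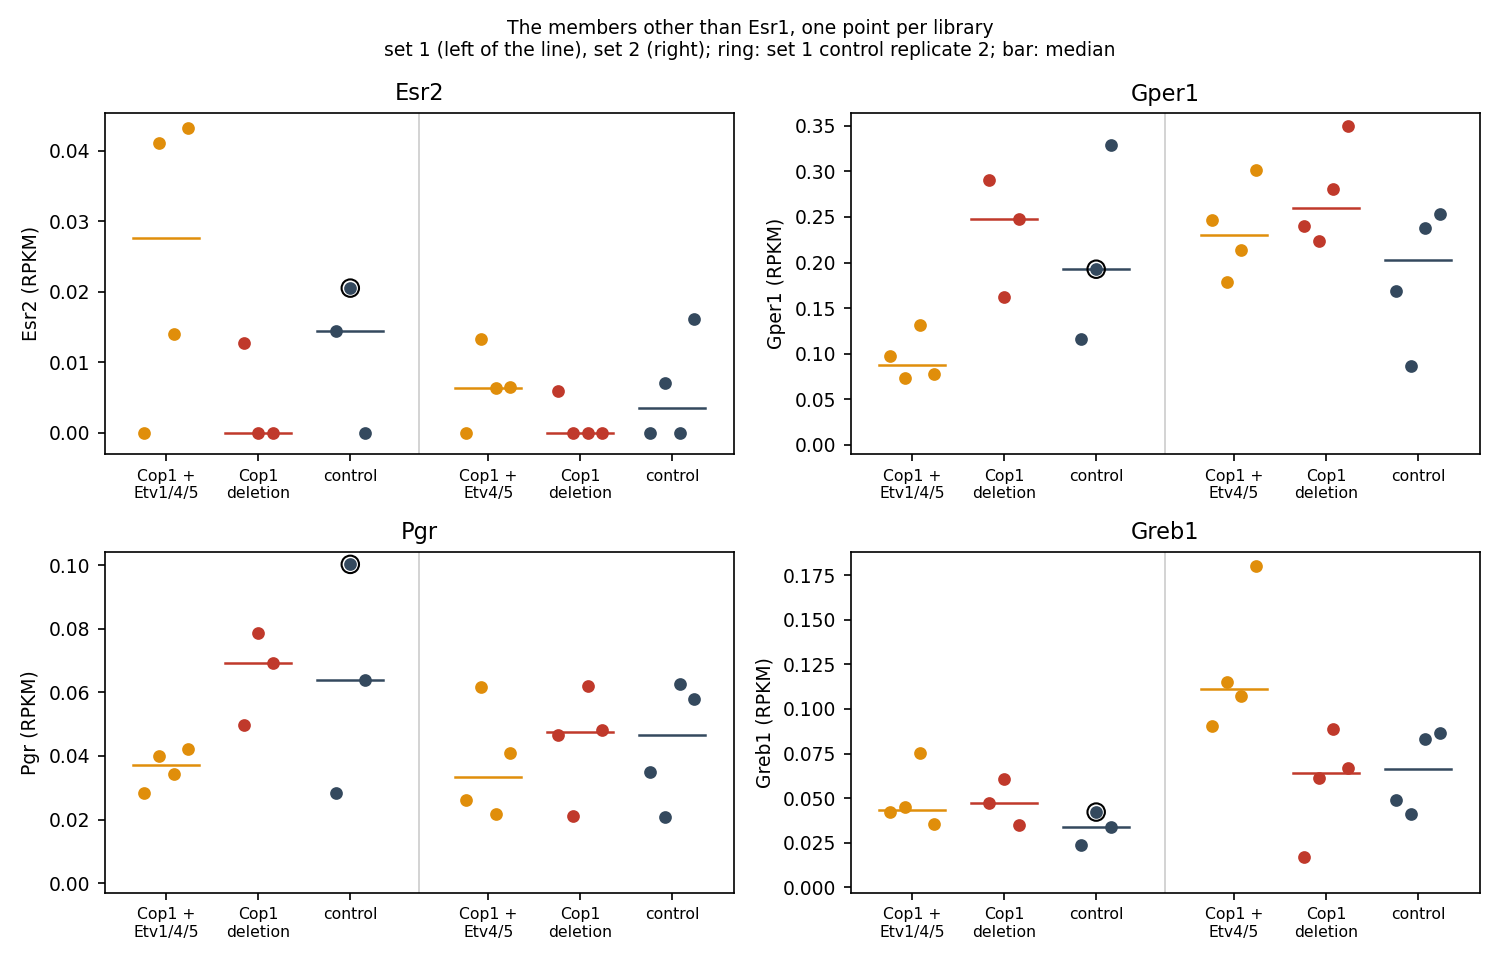
Esr2, Gper1, Pgr and Greb1 in RPKM (linear axes) in each of 22 libraries, by group, with set 1 left and set 2 right of the line; bars are medians and the ring marks the library labelled set 1 control replicate 2. All values are at or below 0.350 RPKM, and Cop1 deletion and control libraries overlap for each gene in both sets.

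These 4 members were compared by exact 2-sided permutation of library labels in 6 comparisons within sets, 24 tests in all, of which 4 separated the groups fully. Gper1 averaged 0.0951 ± 0.0267 RPKM in Etv1/4/5 libraries (SD, n = 4) and 0.233 ± 0.0653 RPKM in Cop1 deletion libraries (SD, n = 3), with an exact p of 0.0286. Pgr averaged 0.0363 ± 0.00618 RPKM in Etv1/4/5 libraries (SD, n = 4) and 0.066 ± 0.0148 RPKM in Cop1 deletion libraries (SD, n = 3), with the same exact p. Among all genes tested, 30.7% separated these groups as fully. This share and those below are over genes that passed the filter, which these 4 members did not, so they are a rough yardstick only. Greb1 averaged 0.123 ± 0.0392 RPKM in Etv4/5 libraries, 0.0584 ± 0.0299 RPKM in Cop1 deletion libraries and 0.065 ± 0.0232 RPKM in controls of set 2 (SD, n = 4 each), with an exact p of 0.0286 against either. The share of all genes that separated as fully was 13.8% for Etv4/5 against Cop1 deletion and 21.6% for Etv4/5 against control. An exact p of 0.0286 is the smallest these group sizes allow and was not adjusted for the 24 tests. In a limma fit without the filter, no comparison of these 4 members was called, and the adjusted p of Greb1 was 0.095 against Cop1 deletion and 0.0769 against control.

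No comparison of Cop1 deletion with control separated any of these 4 members. The difference in mean RPKM was 0.0209 for Gper1 (exact p = 0.8), 0.00186 for Pgr (exact p = 0.9), 0.0145 for Greb1 (exact p = 0.2) and -0.00743 for Esr2 (exact p = 0.4) in set 1, where 3 libraries against 3 cannot give a p below 0.1. In set 2, it was 0.0872 for Gper1 (exact p = 0.143), 0.000285 for Pgr (exact p = 0.971), -0.00657 for Greb1 (exact p = 0.743) and -0.00434 for Esr2 (exact p = 0.429). Among all genes tested, 29.9% separated Cop1 deletion from control in set 1 and 16.1% in set 2, and 14.1% separated Etv1/4/5 from control.

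Of the nuclear receptors related to Esr1, 0 were called after Cop1 deletion over both sets. The comparison averaged Cop1 deletion minus control over both sets by limma on log2(RPKM + 0.5), in which 20.1% of all genes tested were called at an adjusted p below 0.05, 9.57% higher and 10.5% lower. Of 6 relatives, 4 reached the filter and 0 were called, and their median log2 difference was 0.09, beside -0.02 over all genes tested. Without the library labelled set 1 control replicate 2, 0 were called as well. Esrra, an orphan receptor of energy metabolism, differed by 0.11 (SE 0.06, adjusted p = 0.182), and Nr3c1, the glucocorticoid receptor, by 0.07 (SE 0.10, adjusted p = 0.685). Nr3c1 was called in 3 of 31 alternatives: without set 2 Cop1 deletion replicate 2 (log2 difference 0.17, limma adjusted p = 0.0194), without that library and replicate 3 together, and with library weights. Esrra was called with library weights (limma adjusted p = 0.0155). In Etv4/5 against control, where 8.74% of genes were called, Nr3c2, the mineralocorticoid receptor, was higher. Its level was 6.20, 5.91, 6.42 and 6.64 RPKM in Etv4/5 libraries against 3.81, 3.84, 3.75 and 2.25 RPKM in controls, a log2 difference of 0.82 (SE 0.20, limma adjusted p = 0.0126).

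Estrogen-responsive genes were called in both directions. Of 30 listed genes, most of them known from human breast cancer cells or mouse uterus, 23 were tested and 3 were called after Cop1 deletion, 2 higher and 1 lower, with a median log2 difference of -0.01. Among all genes tested, 20.1% were called, and whether the share of the list differs from it was not tested. Without the library labelled set 1 control replicate 2, 5 of the 23 were called, 3 higher and 2 lower. With any 1 library left out, 2272 to 3393 of all genes tested were called. Olfm1, which encodes a secreted olfactomedin, was 10.1, 9.49 and 9.24 RPKM in Cop1 deletion libraries against 6.02, 6.20 and 7.15 RPKM in controls of set 1. Olfm1 in set 2 was 20.8, 27.0, 39.5 and 16.7 RPKM in Cop1 deletion libraries against 7.09, 7.33, 9.56 and 9.91 RPKM in controls. The groups did not overlap in either set, and the library labelled set 1 control replicate 2 had the Olfm1 of a control (6.20 RPKM). Not all listed genes stood with the controls there. Cited2 was 27.6 RPKM in that library, 53.4 and 59.0 RPKM in the other set 1 controls and 24.4 to 28.1 RPKM in Cop1 deletion libraries. Stc2 was 4.60 RPKM in that library, 0.544 and 1.78 RPKM in the other set 1 controls and 1.99 to 3.97 RPKM in Cop1 deletion libraries. The listed genes were not counted by side. The log2 difference of Olfm1 over both sets was 1.02 (SE 0.13, limma adjusted p = 1.64e-05). Ctsd, the lysosomal protease cathepsin D, was higher by 0.30 (SE 0.07, adjusted p = 0.00262), and Siah2, a ubiquitin ligase, differed by -0.38 (SE 0.06, adjusted p = 0.000252).

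Sex-linked transcripts were unevenly spread beside these genes. In set 2, Xist reached 1 RPKM in 2 of 4 Etv4/5, 2 of 4 Cop1 deletion and 4 of 4 control libraries, and Ddx3y in 2 Etv4/5, 2 Cop1 deletion and 0 control libraries. In set 1, Xist reached 1 RPKM in 2 of 4 Etv1/4/5, 1 of 3 Cop1 deletion and 1 of 3 control libraries, and Ddx3y in 4 Etv1/4/5, 3 Cop1 deletion and 2 control libraries. Both transcripts reached 1 RPKM together in 2 Etv1/4/5, 1 Cop1 deletion and 0 control libraries of set 1, and in no library of set 2. Whether such libraries hold islets of several mice was not tested. The part of sex-linked transcripts in the estrogen-responsive genes was not tested either.

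With the Etv deletions added, Olfm1 was lower than after Cop1 deletion alone. It was 5.998, 5.73, 6.19 and 5.96 RPKM in Etv1/4/5 libraries, below all 3 Cop1 deletion libraries, with a log2 difference of -0.64 (SE 0.18, limma adjusted p = 0.0423) in a comparison with 6.34% of genes called. It was 13.7, 14.4, 14.8 and 13.9 RPKM in Etv4/5 libraries, also below all Cop1 deletion libraries of set 2, with a log2 difference of -0.78 (SE 0.17, limma adjusted p = 0.0254) where 1.73% of genes were called. The call in set 1 was lost in 13 of 32 alternatives and the call in set 2 in 6 of 32. Areg, encoding the growth factor amphiregulin, was higher in Etv1/4/5 than in Cop1 deletion libraries by 1.27 on the log2 scale (SE 0.32, limma adjusted p = 0.0221), a call lost in 4 of 32 alternatives, each without 1 library: Cop1 deletion replicate 2 or 4, or Etv1/4/5 replicate 3 or 4 (adjusted p up to 0.149). Areg and Olfm1 were the called genes of this list in Etv1/4/5 against Cop1 deletion libraries, and Olfm1 that in Etv4/5 against Cop1 deletion libraries. In Etv1/4/5 against control libraries, where 1.32% of genes were called, 0 of the 23 were called by limma, and 2 were called without the library labelled set 1 control replicate 2.

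Enzymes of estrogen synthesis and inactivation included 8 tested genes of 14 listed, of which 1 was higher and 2 were lower after Cop1 deletion, beside 9.57% higher and 10.5% lower of all genes tested, with a median log2 difference of 0.01. Hsd17b7, which reduces estrone to estradiol and also acts in cholesterol synthesis, was 4.398, 3.64 and 4.05 RPKM in Cop1 deletion libraries against 6.60, 6.24 and 5.72 RPKM in controls of set 1. Hsd17b7 in set 2 was 2.99, 1.96, 2.78 and 3.69 RPKM in Cop1 deletion libraries against 4.39, 5.35, 4.08 and 7.28 RPKM in controls, again without overlap. Its log2 difference over both sets was -0.67 (SE 0.11, limma adjusted p = 0.00031). Hsd17b11, a 17-beta-hydroxysteroid dehydrogenase of lipid droplets, was higher by 0.38 (SE 0.07, adjusted p = 0.000523), and Hsd17b12, which acts in fatty acid elongation, differed by -0.29 (SE 0.08, adjusted p = 0.0131). In Etv1/4/5 libraries, Hsd17b7 was 6.89, 7.46, 6.61 and 6.36 RPKM, above all Cop1 deletion libraries of set 1 (log2 difference 0.70, SE 0.16, limma adjusted p = 0.0116).

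The chaperone cycle that holds unliganded steroid receptors fell in part after Cop1 deletion. All 15 listed genes were tested, 7 were called and each of the 7 was lower, beside 10.5% lower of all genes tested, with a median log2 difference of -0.23 over the list. Without the library labelled set 1 control replicate 2, 8 were called, all lower. Dnaja1, an HSP40 co-chaperone, differed by -0.48 (SE 0.06, adjusted p = 2.44e-05), Stip1, which links HSP70 to HSP90, by -0.39 (SE 0.06, adjusted p = 0.000248), and Hspa4, an HSP110 exchange factor, by -0.26 (SE 0.05, adjusted p = 0.00042), all by limma. Hsp90ab1, the constitutive HSP90, was 660, 702 and 629 RPKM in Cop1 deletion libraries and 1002, 879 and 1084 RPKM in controls of set 1. Hsp90ab1 in set 2 was 377, 449, 473 and 405 RPKM in Cop1 deletion libraries against 485, 473, 444 and 543 RPKM in controls, with overlap. Its log2 difference over both sets was -0.38 (SE 0.07, limma adjusted p = 0.000474). None of the 15 was called by limma in Etv1/4/5 or Etv4/5 against Cop1 deletion libraries. In Etv1/4/5 against control libraries, 5 of the 15 were called and lower, beside 0.418% lower of all genes tested. Among them was Dnaja1 at -0.68 (SE 0.09, limma adjusted p = 0.000242).

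Of 18 listed co-regulators of the receptor, 16 were tested, and 1 was higher and 3 were lower after Cop1 deletion, with a median log2 difference of -0.16. These 4 of 16 are near the 20.1% called among all genes tested. Ncoa3, a p160 co-activator, was higher by 0.30 (SE 0.07, limma adjusted p = 0.00719). Pelp1 differed by -0.18 (SE 0.04, adjusted p = 0.00177), Med1, the Mediator subunit that contacts nuclear receptors, by -0.29 (SE 0.08, adjusted p = 0.0163), and Safb, a co-repressor, by -0.20 (SE 0.07, adjusted p = 0.0341). With libraries scaled to equal total RPKM, Hsd17b12, Pelp1, Med1 and Safb were no longer called, and Safb lost its call in 10 of 31 alternatives (adjusted p up to 0.161), 7 of them without 1 library. Those were Cop1 deletion replicates 2 and 3 and control replicates 1 and 3 of set 1, and Cop1 deletion replicates 1, 3 and 4 of set 2. Beside all of these lists, the summed ductal markers given above were higher in every Cop1 deletion library than in every control of its set, and their part in these differences was not tested. In set 1 the marker that did not overlap the controls was Spp1, which was 65.5 to 153 RPKM in Cop1 deletion and 10.1 to 34.8 RPKM in control libraries, while Krt19, Krt7, Sox9 and Muc1 overlapped the controls. In set 2, Spp1 was 1844 to 3493 RPKM in Cop1 deletion and 750 to 1268 RPKM in control libraries, and Krt7 was 459 to 779 RPKM in Cop1 deletion and 229 to 276 RPKM in control libraries.

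**Figure D5:**
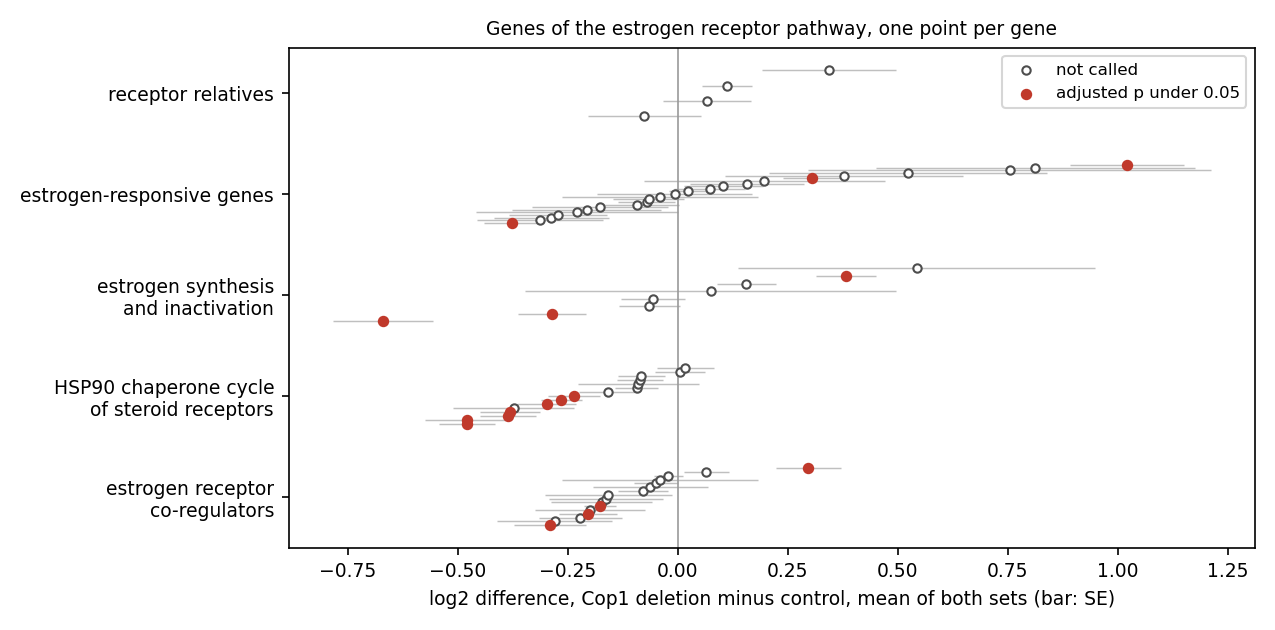
The log2 difference (Cop1 deletion minus control, mean of both sets, on log2(RPKM + 0.5)) of each tested gene in 5 lists of the estrogen receptor pathway, with bars for the standard error and filled points for genes called by limma at an adjusted p below 0.05. The 7 called chaperone genes are all lower, while 3 estrogen-responsive genes are called, 2 higher and 1 lower.

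A palindromic estrogen response element was looked for in the promoter windows of these genes, 250 bases before to 50 after each start in RefSeq (GRCm38.p6), on both strands. The full element GGTCANNNTGACC was found in 0 of 5 members, 0 of 22 estrogen-responsive genes with a window and 0 of the 4 genes most like Esr1 that have a window, among which is Bend5. It is rare in such windows, at 20 of 27025 genes (0.074%). The arm of the element, GGTCA or TGACC, which the full element contains, was found in 3 of 5 members, 12 of 22 estrogen-responsive genes, 0 of those 4 genes and 43.6% of all genes. No match says only that these letters are not in these windows.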

How the data were processed

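RNA of handpicked mouse islets was sequenced from standard Illumina libraries, per the labels' protocols. The deposited values are RPKM computed by the authors. Their genome build was mm9, as named in the submitters' processing notes; for the aligner and the counter the sources used here give no name. Of 24 columns, 22 were placed by the sample number in the titles, and 2 were not used. The number of one unused column stands in the titles of both a control and a Cop1 deletion sample of set 1. The number of the other stands in no title. Gene numbers were paired with symbols for 24998 of 28059 genes. Relative depth and reads were derived from the steps of low values: all values of 2714 low genes (below 0.3 RPKM in every library, above 0 in at least 10) lay within 0.01 of a whole multiple. The total number of reads is unknown. limma 3.58.1 in R 4.3.3 (trend, robust) was fitted to log2(RPKM + 0.5) of 14342 genes that reached 1 RPKM in 4 or more libraries, with 1 mean for each of 6 groups. A gene is called at a Benjamini-Hochberg adjusted p below 0.05 over all genes tested. The pseudocount understates fold changes of low genes. On simulated data for the comparison over both sets (14342 genes), the fit recovered 2-fold changes of most changed genes. Members below the filter were compared by exact permutation. Named list genes are up to 4 called genes with the smallest adjusted p, or the 2 of highest level where none is called. Members and lists were chosen with earlier results of these data known. Alternatives covered pseudocount, filter, scaling, fit, library weights and leaving out libraries.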

Additional observations from a re-analysis of the deposited data

Results flagged for a closer look

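Among 172 groups of 4 libraries examined for the genes named here, 9 held a library far from the other 3, and chance flags about 1 in 20 groups. Esr1 was 71.9 RPKM in Etv4/5 replicate 1, against 93.9 to 98.3 RPKM in the other 3 libraries of its group. Esr2 was 0.00598 RPKM, or 1 read, in set 2 Cop1 deletion replicate 1, and 0 in the other 3 libraries. The rule flags any group with reads in only 1 library, so the flag of Esr2 says nothing more. Among listed genes, set 2 Cop1 deletion libraries stood apart with Aqp3 at 29.1 RPKM in replicate 3 (others 32.2 to 32.7), Cited2, an estrogen-responsive co-activator gene, at 23.3 RPKM in replicate 1 (others 17.6 to 18.1), Nr3c1 at 13.7 RPKM in replicate 2 (others 23.8 to 25.3) and Safb at 31.4 RPKM in replicate 2 (others 26.2 to 27.0). In Etv4/5 libraries, Ctsd was 191 RPKM in replicate 1 (others 208 to 210) and Xbp1 was 228 RPKM in replicate 3 (others 247 to 249). Nr3c2 was 2.25 RPKM in set 2 control replicate 4 (others 3.75 to 3.84).

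The effect of Cop1 deletion differed between the sets for 2 named genes, by the limma contrast of both effects, in which 2.83% of genes were called. Xbp1, an estrogen-responsive gene that encodes a factor of the unfolded protein response, had a difference of -0.38 (set 1 effect minus set 2 effect, log2; adjusted p = 0.0207), and was 239, 235 and 212 RPKM in Cop1 deletion against 265, 273 and 235 RPKM in control libraries of set 1. Stip1 had a difference of -0.48 (adjusted p = 0.0499), a call that was lost in 22 of 31 alternatives.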

How the results depend on the processing

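No paired analysis was possible because the replicate numbers follow accession order and the labels pair no libraries. The counts of called genes changed by over 1.5 times as follows, and the cause was not tested. For Cop1 deletion minus control, 2877 genes were called over both sets and 6259 with library weights. In set 1 the count was 1195, and 2112 with set 1 alone, 5429 with library weights, 2061 without set 2 Cop1 deletion replicates 2 and 3, and 718 to 1890 with each library left out. In set 2 it was 2702, and 1468 alone, 5035 with weights and 1585 without those replicates. For Etv1/4/5 minus Cop1 deletion it was 909, and 1627 with equal total RPKM (237 higher, 1390 lower, against 523 and 386), 1704 alone, 3712 with weights, 1691 without those replicates and 542 to 1516 with each library left out. For Etv4/5 minus Cop1 deletion it was 248, and 0 with set 2 alone in limma, 3217 with weights, 44 without those replicates and 15 to 767 with each library left out. For Etv1/4/5 minus control it was 189, and 3022 with weights, 330 without those replicates, 91 to 358 with each library left out, and 358 without the library labelled set 1 control replicate 2. For Etv4/5 minus control it was 1253, and 661 alone, 4766 with weights, 2231 without those replicates and 801 to 1997 with each library left out. For the difference between sets it was 406, and 613 with equal total RPKM, 3872 with weights and 218 to 843 with each library left out.

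With libraries scaled to equal total RPKM, the median log2 difference of all genes was 0.12 in Cop1 deletion minus control of set 1, against -0.006 unscaled. It was -0.13 in Etv1/4/5 minus Cop1 deletion, against 0.002, and 0.20 in the difference between sets, against 0.013. No called gene named from the lists changed direction under these alternatives. The exact tests of Gper1 and Pgr lost their p below 0.05 with any library left out, since fewer libraries cannot reach it, and those of Greb1 with most libraries left out. The low members rest on 0 to 68 reads a library, which limits any difference that could be seen.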
